A study of Mus musculus with 16 samples.

Results

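The thick filament genes and titin are 8 mouse genes that build and hold the myosin filament of the sarcomere: the myosin heavy chains Myh6 and Myh7, the light chains Myl2 and Myl3, the myosin-binding protein Mybpc3, titin (Ttn) and the M-band proteins Myom1 and Myom2. They were taken by name, 8 of the 21887 protein-coding genes, and a peak was counted at a gene when it overlapped the gene body, extended by 5 kb at either end, by at least 1 bp. Of the 33378 peaks of all lists, 260 lay at these genes. Their windows span 645.855 kb, in 7 stretches because the windows of Myh6 and Myh7 overlap, and make up 0.0546% of the windows of all protein-coding genes.

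The peaks come from chromatin immunoprecipitation and sequencing (ChIP-seq), which maps where a protein sits on DNA, in ventricles of mouse hearts at postnatal day 15. Paro/Neo mice had received the aminoglycoside antibiotics paromomycin and neomycin (150 mg/kg, 2 times a day, intraperitoneal) for 7 days from postnatal day 7, and control mice had received PBS. An antibody to Meis1/2, called Meis1 here although it may also recover Meis2, and an antibody to Hoxb13 each gave 2 Paro/Neo and 2 control libraries. Genotype and strain are not given in the labels, which mention 2 hearts as duplicates without saying whether a library is 1 heart or a pool, so a p-value over libraries measures the spread between these libraries only. The comparison asks whether the drugs changed where Meis1 and Hoxb13 were bound.

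In heart muscle, force comes from myosin heads pulling on the thin filament. The heavy chain carries the motor, the light chains stiffen and tune its lever arm, myosin-binding protein C restrains the heads, titin spans from Z-disc to M-band as a spring and ruler, and the myomesins crosslink filaments at the M-band. In mouse ventricles the fetal heavy chain Myh7 gives way to the adult heavy chain Myh6 around birth, and the microRNAs miR-208a and miR-208b are encoded within Myh6 and Myh7. Both Meis1 and Hoxb13 are homeodomain proteins that bind DNA and have been studied for their part in the exit of heart muscle cells from the cell cycle after birth.

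Lists held 1541 and 1025 Meis1 peaks in the Paro/Neo libraries, against 3529 and 3176 in the controls. Hoxb13 lists held 821 and 16963 peaks in Paro/Neo replicates 1 and 2, against 5202 and 1121 in control replicates 1 and 2, so each group holds a long and a short list. Sequencing depth is unknown, and the part of depth in any count of peaks below was not tested. The Meis1 and Hoxb13 libraries have titles of different style and separate inputs, so antibody and set cannot be told apart. Deposited file names of the second Meis1 replicates carry the letter of the other group; the labels were followed. Where a Meis1 result below is given as both controls against neither Paro/Neo library, the exchange would place 1 of those controls in each group, and values with these libraries exchanged are given for the tests and counts between groups.

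The promoters of Myl2, Myh6 and Ttn are shown because they were the members' promoters that a Meis1 region called in at least 2 libraries touched. The promoter of Myh7 is shown because every Hoxb13 list covered it whole. Each is the 250 bases before an annotated start, from RefSeq (GRCm38.p6), with the MEIS core word (TGACAG, or CTGTCA on the other strand) and the TEAD word (CATTCC, or GGAATG on the other strand) in capitals. The Myl2 promoter, before the second of 2 annotated starts, is chr5:122092939-122093188 on the plus strand; those of Myh6 (chr14:54966608-54966857), Ttn (chr2:76982548-76982797) and Myh7 (chr14:54994627-54994876) are on the minus strand.
Myl2: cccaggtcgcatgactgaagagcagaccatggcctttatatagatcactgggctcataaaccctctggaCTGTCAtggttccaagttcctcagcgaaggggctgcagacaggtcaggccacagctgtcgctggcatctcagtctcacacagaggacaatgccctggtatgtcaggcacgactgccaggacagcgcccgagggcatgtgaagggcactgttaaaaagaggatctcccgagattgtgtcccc
Myh6: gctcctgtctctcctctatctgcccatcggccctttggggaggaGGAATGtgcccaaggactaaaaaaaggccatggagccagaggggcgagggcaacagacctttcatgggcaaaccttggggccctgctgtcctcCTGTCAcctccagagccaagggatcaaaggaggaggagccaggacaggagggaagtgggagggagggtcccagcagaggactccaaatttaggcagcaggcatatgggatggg
Ttn: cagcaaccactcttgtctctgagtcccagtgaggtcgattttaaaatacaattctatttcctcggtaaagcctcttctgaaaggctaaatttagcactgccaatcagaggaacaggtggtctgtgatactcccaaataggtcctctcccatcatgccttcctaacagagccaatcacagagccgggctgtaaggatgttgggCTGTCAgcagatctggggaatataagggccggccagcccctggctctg
Myh7: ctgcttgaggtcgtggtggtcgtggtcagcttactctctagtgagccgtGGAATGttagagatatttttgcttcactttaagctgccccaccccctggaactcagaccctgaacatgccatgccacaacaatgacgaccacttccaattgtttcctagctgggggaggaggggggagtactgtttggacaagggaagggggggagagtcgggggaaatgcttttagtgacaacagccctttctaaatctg

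The MEIS word in the Myl2 promoter (122093008 to 122093013, 181 bases before the start) lay under a Meis1 peak of Paro/Neo replicate 1 and of both controls. Another MEIS word, 134 bases before the first Myl2 start (122092590 to 122092595), lay under no peak of either antibody. In the Ttn promoter the word (76982590 to 76982595, 48 bases before the start) lay under a Meis1 peak of both controls and of neither Paro/Neo library. The word in the Myh6 promoter (54966715 to 54966720, 113 bases before the start) lay outside the Meis1 peaks, which began at 54966724 and 54966779 in control replicates 1 and 2. Those peaks covered 134 and 79 bases of this promoter. The MEIS word is found on either strand in 15.4% of 21263 RefSeq promoters of this length and in 80 of the 175 promoters (45.7%) that a Meis1 region called in at least 2 libraries touched, a share computed after the data had been seen. In those 175 promoters the TEAD word was in 10.9% and the TATA word, given below, in 6.29%. Other words were searched on both strands. The TEAD word, a site of muscle gene promoters known as M-CAT, is in 11.7% of all promoters and was found at Myh6, at Myh7 and 2 times at Myl3. At Myh6 it (54966808 to 54966813) lay under a Meis1 peak of both controls, and at Myh7 and Myl3 under no Meis1 peak. The TATA word TATAAA is in 11.6% of promoters and was found, on the other strand, at Myl2. A MEF2 site, bound by a muscle transcription factor, is in 0.466% of promoters and was found at Ttn and Mybpc3. HOXB13 words were CAATAAA, in 3.65% of promoters, and TCGTAAA, in 0.475%. Of the 3354 promoters that a Hoxb13 region called in at least 2 libraries touched, 2.21% and 0.507% held them, 9.36% the TEAD word and 3.88% the TATA word. Neither HOXB13 word was found in a promoter window of the members. No match at the members overlapped a match of another word, and a match describes letters, not binding.

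The mature microRNAs of the myosin heavy chain genes are shown because Hoxb13 peaks covered both of their genes. Their seed (bases 2 to 8) is in capitals, and the 3p arms share the seed UAAGACG while the 5p arms share AGCUUUU. The miR-208a hairpin gene (chr14:54949060-54949142) and the miR-208b hairpin gene (chr14:54975700-54975776), both on the minus strand, each lay under a Hoxb13 peak in Paro/Neo replicates 1 and 2 and control replicate 1, and not in control replicate 2. No Meis1 peak covered either.
miR-208a-3p: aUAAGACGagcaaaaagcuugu
miR-208b-3p: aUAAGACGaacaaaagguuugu
miR-208a-5p: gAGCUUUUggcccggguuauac
miR-208b-5p: aAGCUUUUugcucgcguuaugu

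Hoxb13 peaks lay at most of the thick filament genes in every library, and Meis1 peaks at fewer of them. In the Hoxb13 lists, 6 and 8 of the 8 genes held a peak in Paro/Neo replicates 1 and 2, against 7 and 7 in control replicates 1 and 2. Of all protein-coding genes, 4.2% and 46.5% held a peak in these Paro/Neo lists, against 24.2% and 5.79% in the controls. The Hoxb13 peaks at Myl3, Mybpc3 and Myom1 touched the gene body itself in Paro/Neo replicate 2 alone. In the other lists they lay only in the 5 kb past the 3′ end. Meis1 peaks lay at 2 and 1 of the 8 genes in Paro/Neo replicates 1 and 2, against 5 and 4 in the controls, where the shares of all genes were 4.07% and 2.83% in Paro/Neo and 8.59% and 8.21% in control libraries. For each antibody, overlapping peaks from its 4 libraries were joined into regions. A Hoxb13 region called in at least 2 libraries lay at 7 of the 8 genes (all but Myom2), beside 22.9% of all genes, and a region called in all 4 at 6 of 8 (Myh6, Myh7, Myl2, Myl3, Mybpc3 and Ttn), beside 2.84%. For Meis1, 4 of 8 genes (Myh6, Myh7, Myl2 and Ttn) held a region called in at least 2 libraries, beside 6.19% of all genes, and Myl2 alone a region called in all 4, beside 1.75%.

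Longer windows have more room for peaks. Among genes of at least 100 kb, a length chosen after the data had been seen, 25.3% held a Hoxb13 region called in at least 2 libraries and 22.3% a Meis1 region. Both members of that length, Ttn and Myom1, held such a Hoxb13 region, and Ttn such a Meis1 region. Paro/Neo replicate 2 and control replicate 1 are the long Hoxb13 lists. Without either of them the share of all genes with a Hoxb13 region in at least 2 libraries was 6.56% and 7.19%, while 7 of the 8 members held one in both cases.

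**Figure D1:**
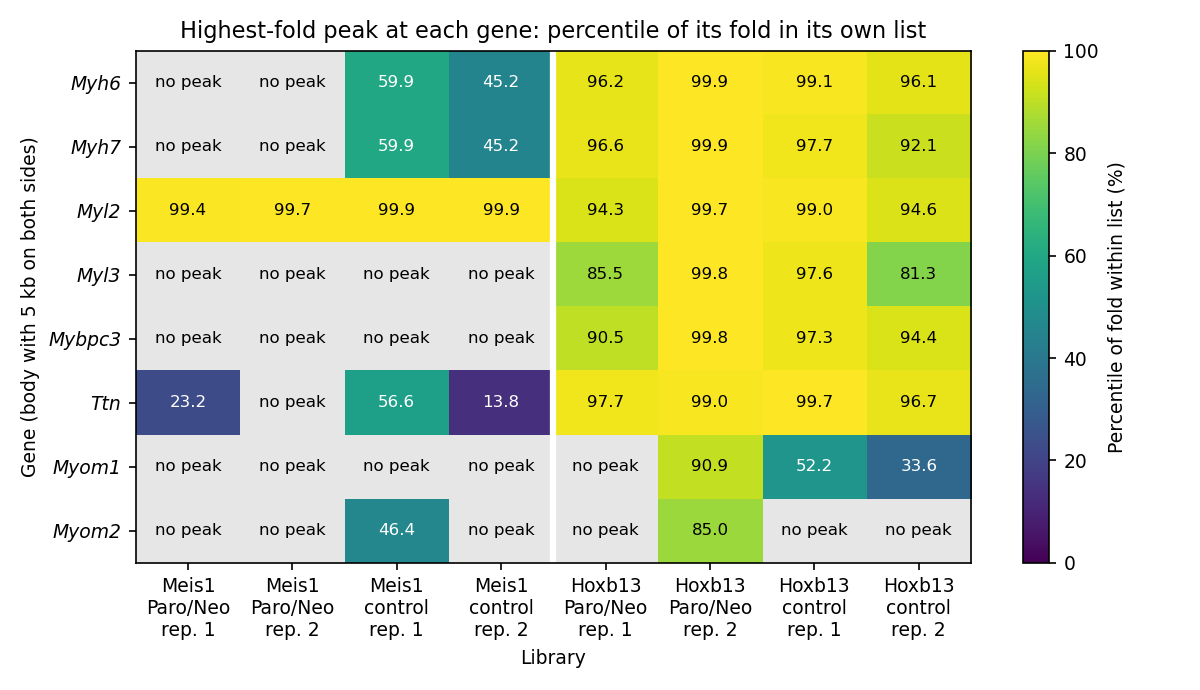
Highest-fold peak at each thick filament gene (rows) in each library (columns, Paro/Neo left of control within an antibody), as the percentile of its fold in its own list, with grey cells where a list holds no peak. The Meis1 cells are filled across all 4 libraries at Myl2 alone, from 99.4 to 99.9, whereas the Hoxb13 cells are filled across all 4 libraries from Myh6 to Ttn.

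Fold enrichment, the authors' value for each peak over its local background, was compared only within a list, by rank from the highest fold and by percentile. Myl2, the regulatory light chain of ventricular myosin, held a Meis1 peak near the top of every list. This peak ranked 10 and 4 in Paro/Neo replicates 1 and 2, against 3 and 5 in control replicates 1 and 2. Its deposited folds were 12.5 and 17.3 in Paro/Neo and 18.0 and 19.6 in control libraries, and its widths were 456 and 448 bp in Paro/Neo and 339 and 616 bp in control libraries. All 4 peaks lay inside the gene record, with centres 1935 and 1930 bp past its 5′ end in Paro/Neo and 1935 and 1832 bp in control libraries, and 339 bp were common to all 4. Exon and intron could not be assigned, since the gene table used here gives only the ends of each gene. The sequence under this peak is not shown because no genome was used here.

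A second Meis1 peak at Myl2 lay over the promoter shown above, in the region 122092760 to 122093187. It ranked 240 in Paro/Neo replicate 1, against 115 and 238 in control replicates 1 and 2, with folds of 6.79 in Paro/Neo and 10.0 and 8.36 in control libraries. Paro/Neo replicate 2, the shortest Meis1 list, held no peak there. The peak covered 245 of the 250 promoter bases in Paro/Neo replicate 1, against 249 and 243 in the controls. Another Meis1 peak, toward the 3′ end of Myl2 (122109514 to 122109784), was called in control replicate 1 alone at rank 2615.

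**Figure D2:**
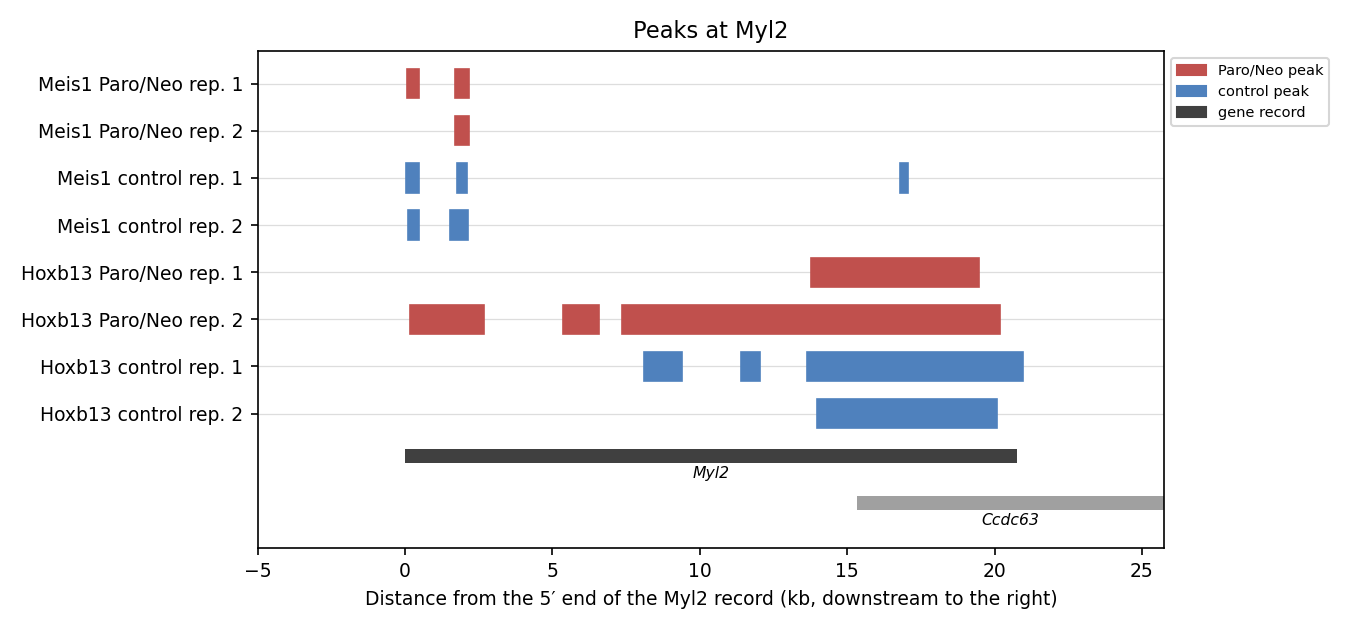
Peaks at Myl2 in each library (rows, Paro/Neo above control within an antibody) by distance in kb from the 5′ end of the gene record, with the gene and its neighbour Ccdc63 as bars at the bottom. Meis1 peaks stack near 2 kb in all 4 libraries, while the Hoxb13 peak shared by all 4 lists lies toward the 3′ end, where the record of Ccdc63 overlaps that of Myl2.

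Myh6, the adult heavy chain of mouse ventricles, and Myh7, the fetal and slow muscle heavy chain, lie head to tail and share a Meis1 region (chr14:54966724-54966977) over the Myh6 promoter. It was called in both controls, at ranks 1416 and 1743 and percentiles 59.9 and 45.2, and in neither Paro/Neo library. Control replicate 1 also held a peak between the genes (54968031 to 54968581, rank 2895), and control replicate 2 one upstream of Myh7 (54996883 to 54997115, rank 2270). Myh6 and Myh7 are similar in sequence, and how reads that fit both were placed is not given in the sources used here, so a split of signal between them is uncertain.

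At Ttn, which encodes the giant spring protein of the sarcomere, a wide Meis1 region (76981730 to 76982862) lay over the promoter in both controls, covering 250 and 240 of its 250 bases in replicates 1 and 2. It was 1133 and 1030 bp wide in control replicates 1 and 2, the 16th and 32nd widest peak of those lists, at ranks 1533 and 2740 by fold. Neither Paro/Neo library called it. Single libraries held narrow peaks further inside the gene, at 76808392 to 76808586 in Paro/Neo replicate 1, and at 76953244 to 76953470 and 76963183 to 76963375 in control replicate 1. Myom2, an M-band protein of fast fibres and adult heart, held 1 Meis1 peak (15062780 to 15062958), in control replicate 1 at rank 1894. No Meis1 list held a peak at Myl3, the essential light chain of the ventricle, at Mybpc3, or at Myom1, the myomesin found in all striated muscle.

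Meis1 peaks at the thick filament genes were fewer in Paro/Neo than in control libraries, as were Meis1 peaks in the whole lists. Peaks at the members numbered 3 and 1 in Paro/Neo replicates 1 and 2, against 9 and 5 in the controls. The covered length averaged 0.744 ± 0.419 kb in Paro/Neo and 3.01 ± 0.80 kb in control libraries (SD, n = 2 each). As a share of the length of its list this was 0.219% and 0.140% in Paro/Neo, against 0.329% and 0.246% in the controls, so the groups did not overlap on that measure, though they would with the second replicates exchanged. Per 1000 peaks of the list they did overlap, with 1.95 and 0.976 peaks at the members in Paro/Neo, against 2.55 and 1.57 in the controls. Covered length at a gene was lower in both Paro/Neo libraries than in both controls at 4 of the 8 members (Myh6, Myh7, Myl2 and Ttn), beside 4.04% of all genes, and higher in both at none, beside 0.101%. Only a gene with a peak in both controls can be lower in both, and 8.21% of all genes had a peak in control replicate 2. The 4 members are the only members with a peak in both controls, and Myh6 and Myh7 share a region. With the second Meis1 replicates exchanged, covered length was lower in both at none of the members, beside 0.311% of all genes, and higher in both at none, beside 0.813%.

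At Myh6, Meis1 peaks covered 0 and 0 bp in Paro/Neo libraries, against 805 and 192 bp in control replicates 1 and 2. At Myh7 they covered 0 and 0 bp in Paro/Neo, against 805 and 425 bp in control libraries. The 805 bp of control replicate 1 are the same peaks at both genes. Ttn had 195 and 0 bp covered in Paro/Neo, against 1553 and 1030 bp in control libraries. Myl2 had 846 and 448 bp in Paro/Neo, against 1038 and 988 bp in control libraries. Neither Paro/Neo library reached either control at any of these 4 genes, and the gap was narrowest at Myl2.

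On the scale of log2(bp + 100), Paro/Neo minus control was -2.36 at Myh6, -2.79 at Myh7, -0.63 at Myl2 and -2.99 at Ttn (exact two-sided permutation p = 0.333 for each). Values at Myom2 overlapped between the groups (-0.74, exact permutation p = 1). With 1 bp added instead of 100 the differences were -8.62 at Myh6, -9.19 at Myh7, -0.72 at Myl2 and -6.50 at Ttn. The sizes at Myh6, Myh7 and Ttn thus depend on the added length, since at least 1 Paro/Neo library had 0 bp at each. With 2 libraries against 2 there are 6 orders, and 0.333 is the smallest p they allow, so none of the comparisons could reach significance. The control peaks at Myh6, Myh7 and Ttn had ranks beyond the 1025 peaks of the shortest list. When every Meis1 list was reduced to its 1025 peaks of highest fold, the difference in the number of members with a peak was 0, against -3 as deposited, and the Myl2 region was the only one called in at least 2 libraries at a member. With the second replicates exchanged as the file names have it, that difference was 0 too, the log2 difference in covered length over all members was 0.33 instead of -2.11, and those at Myh6, Myh7, Myl2 and Ttn were -0.82, -0.39, 0.36 and 0.51.

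**Figure D3:**
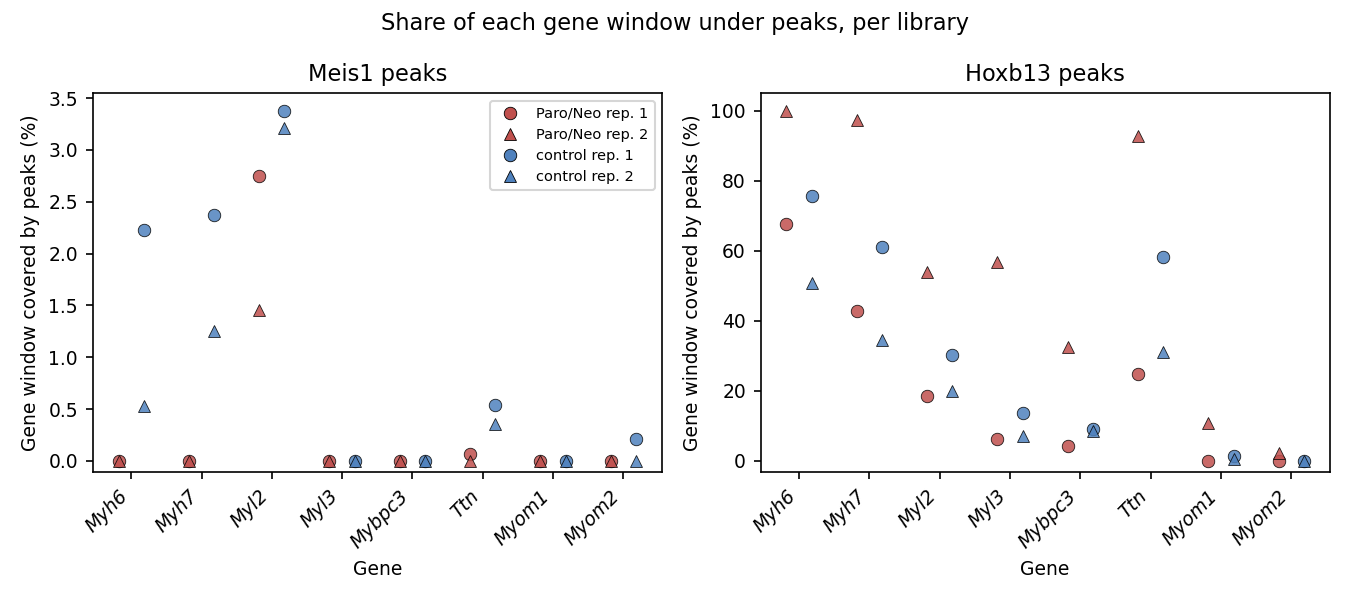
Share of each gene window (gene and 5 kb at either end) under peaks, in percent, for Meis1 (left panel) and Hoxb13 (right panel, wider axis), 1 point per library with Paro/Neo left of control. Meis1 points stay below 3.5% and the control points lie above the Paro/Neo points at Myh6, Myh7, Myl2 and Ttn, while Hoxb13 points reach 100% at Myh6 and Paro/Neo replicate 2 is the highest point at every gene.

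Hoxb13 peaks covered long stretches of the myosin heavy chain genes and titin rather than single sites. At Myh6 they covered 67.8% and 100% of the window in Paro/Neo replicates 1 and 2, against 75.6% and 50.7% in control replicates 1 and 2. By this share Myh6 ranked 1 and 1 among all 21887 genes in the Paro/Neo lists, and 1 and 2 in the control lists. Myh7 was covered over 42.7% and 97.5% of its window in Paro/Neo, against 61.2% and 34.6% in control libraries, with ranks of 3 and 3 in Paro/Neo and 4 and 4 in control lists. Ttn was covered over 24.9% and 92.9% in Paro/Neo, against 58.3% and 31.2% in control libraries, at ranks 11 and 4 in Paro/Neo and 5 and 10 in control lists. All 3 genes thus stood among the 11 most covered genes of every list. The windows of Myh6 and Myh7 overlap, and they also hold the records of Cmtm5, the non-coding RNA genes Mhrt, Gm31251 and Gm52092, and both microRNA genes.

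The highest-fold Hoxb13 peak at Myh6 ranked 32 and 20 in Paro/Neo replicates 1 and 2, against 49 and 45 in control replicates 1 and 2. In Paro/Neo replicate 1 it spanned 54937588 to 54955671, and in control replicates 1 and 2 it spanned 54936452 to 54955483 and 54937595 to 54947730. These 3 peaks cover the 3′ part of Myh6 and run past its 3′ end over Cmtm5. In Paro/Neo replicate 2 a single peak of 40787 bp held all of Myh6 and part of Myh7. Bases under a peak in all 4 Hoxb13 libraries made up 47.1% of the Myh6 window and 32.7% of the Myh7 window.

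At Myh7 the highest-fold peak lay over the 5′ end in all 4 libraries. It ranked 29 and 17 in Paro/Neo, against 122 and 89 in control lists, at percentiles of 96.6 and 99.9 in Paro/Neo and 97.7 and 92.1 in control lists. Widths were 10776 and 30430 bp in Paro/Neo and 13387 and 10569 bp in control libraries. All 250 bases of the Myh7 promoter shown above lay inside this peak in every list. The Myh6 promoter, by contrast, lay under a Hoxb13 peak in Paro/Neo replicate 2 and control replicate 1 only.

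**Figure D4:**
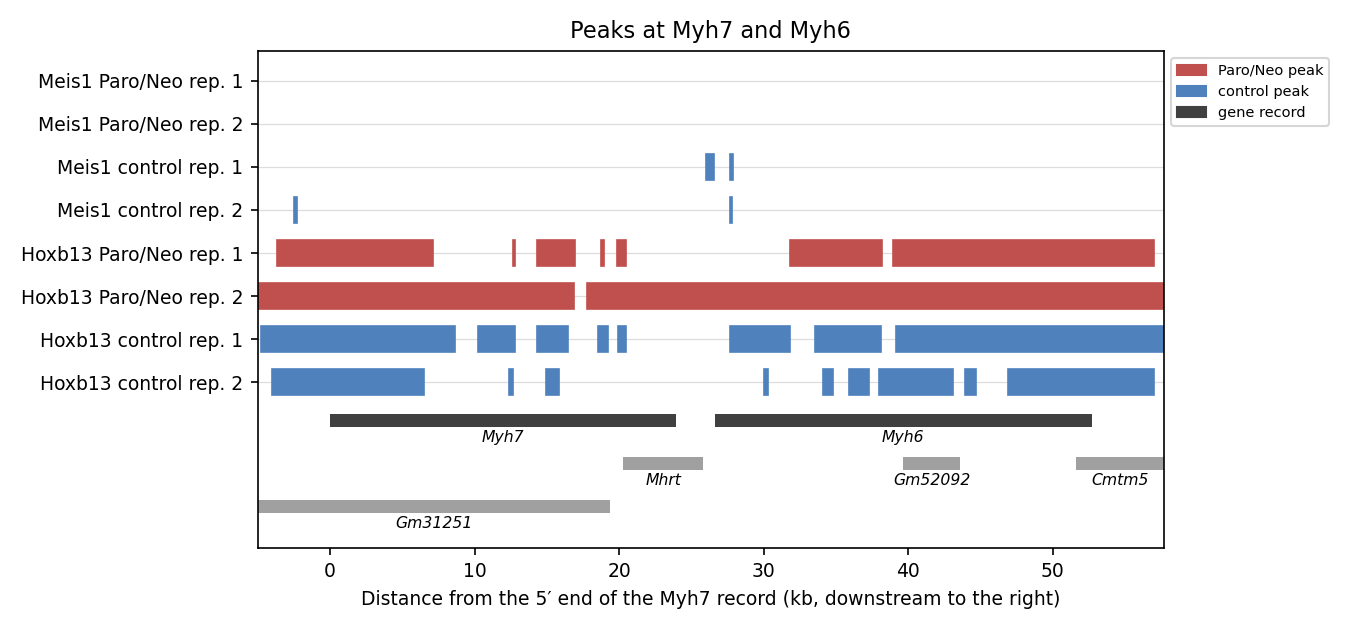
Peaks at Myh7 and Myh6 in each library (rows, Paro/Neo above control within an antibody) by distance in kb from the 5′ end of Myh7, both genes running left to right, with neighbouring genes as grey bars. Hoxb13 peaks sit over the 5′ end of Myh7 and the 3′ part of Myh6 in all 4 lists, and the few Meis1 peaks, in control libraries alone, lie at the 5′ end of Myh6, between the genes and upstream of Myh7.

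Ttn held 44 and 11 Hoxb13 peaks in Paro/Neo replicates 1 and 2, against 67 and 44 in control replicates 1 and 2. The low number in Paro/Neo replicate 2 goes with very wide peaks there, of up to 96161 bp, that run together what the other lists hold as separate peaks. Regions merged over the 4 libraries take the borders of these wide peaks, so bases were also counted. Of the Ttn window, 19.5% lay under a peak in all 4 libraries, 32.8% in at least 3 and 61.6% in at least 2. The highest-fold peak lay across or just past the 3′ end, at 76701233 to 76703852 in Paro/Neo replicate 1 (rank 20), against 76700670 to 76705156 and 76700843 to 76703638 in control replicates 1 and 2 (ranks 17 and 38). In Paro/Neo replicate 2 it was a peak of 73113 bp inside the gene (76873801 to 76946913, rank 169). Wide peaks overlapping each other lay at 76884282 to 76901240 in Paro/Neo replicate 1, against 76877955 to 76903799 and 76884834 to 76902112 in control replicates 1 and 2, all inside the span of that 73113 bp peak.

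**Figure D5:**
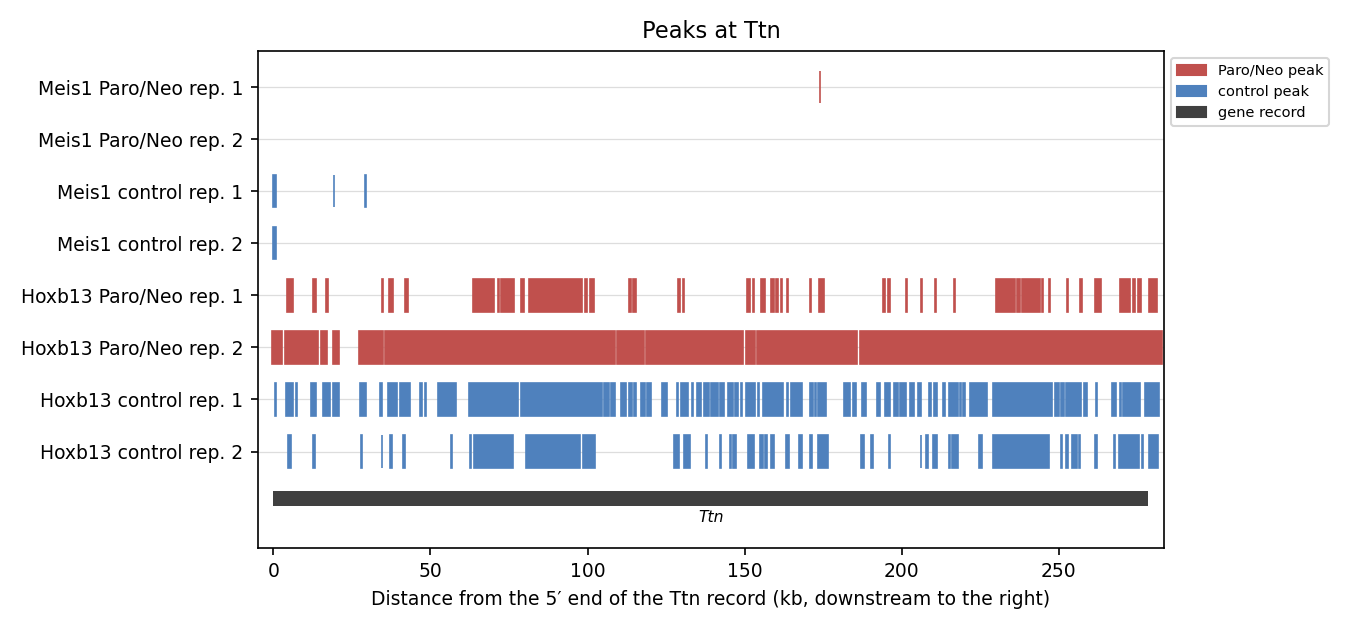
Peaks at Ttn in each library (rows, Paro/Neo above control within an antibody) by distance in kb from the 5′ end of the gene record. Hoxb13 peaks recur along the whole gene in all 4 lists, with wide blocks at like positions in the 3 lists other than Paro/Neo replicate 2, where 92.9% of the window is covered; Meis1 peaks at the 5′ end appear in control libraries alone.

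The light chain genes were covered over a smaller share than Myh6 in every list, and their highest-fold Hoxb13 peak lay toward or past the 3′ end. Hoxb13 peaks reached the Myl3 promoter and that of the second Myl2 start in Paro/Neo replicate 2 alone, over all 250 bases. Myl2 was covered over 18.5% and 53.9% of its window in Paro/Neo, against 30.2% and 19.9% in control libraries. Its highest-fold Hoxb13 peak ranked 48 and 46 in Paro/Neo and 54 and 61 in control lists, with widths of 5680 and 12818 bp in Paro/Neo and 7332 and 6106 bp in control libraries. That peak lay over the 3′ part of Myl2, where it also overlaps the record of Ccdc63, and 5474 bp of it were common to all 4 lists. The intragenic site of the strong Meis1 peak lay under a Hoxb13 peak in Paro/Neo replicate 2 alone. Myl3 was covered over 6.34% and 56.7% in Paro/Neo, against 13.8% and 7.04% in control libraries. Its highest-fold peak was centred 3118 and 1414 bp past the 3′ end in Paro/Neo and 2793 and 3033 bp past it in control libraries, at ranks 120 and 38 in Paro/Neo and 125 and 211 in control lists.

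Mybpc3 was covered over 4.27% and 32.5% in Paro/Neo, against 9.12% and 8.63% in control libraries. Its highest-fold Hoxb13 peak, centred 1651 and 1371 bp past the 3′ end in Paro/Neo and 1567 and 1578 bp past it in control libraries, overlapped the neighbouring gene Madd in all 4 lists. It ranked 79 and 37 in Paro/Neo, against 140 and 64 in control lists. A peak there cannot be assigned to either gene by position.

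By share of the window, the M-band genes were covered least by Hoxb13 peaks. Myom1 was covered over 0% and 10.8% in Paro/Neo, against 1.51% and 0.422% in control libraries, with a highest-fold peak past its 3′ end in the 3 lists that had one. Myom2 held peaks in Paro/Neo replicate 2 alone, over 2.11% of its window. No base of either window lay under a peak in all 4 lists. The 8 genes thus ran from Myh6, with 47.1% of its window under a peak in all 4 lists, through Myh7 (32.7%), Ttn (19.5%), Myl2 (17.8%), Myl3 (6.16%) and Mybpc3 (3.98%) to Myom1 and Myom2.

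Hoxb13 coverage of the members did not separate Paro/Neo from control. Together the members had 119 and 381 kb under peaks in Paro/Neo replicates 1 and 2, against 231 and 130 kb in control replicates 1 and 2, or 250 ± 186 kb in Paro/Neo and 181 ± 71.2 kb in control libraries (SD, n = 2 each). Peaks at the members numbered 55 and 48 in Paro/Neo, against 82 and 57 in control libraries. Covered length was lower in both Paro/Neo libraries than in both controls at none of the members, beside 0.0457% of all genes, and higher in both at none, beside 0.366%. Log2 differences, Paro/Neo minus control, were 0.41 at Myh6 and 0.49 at Myh7 (exact two-sided permutation p = 0.667 for each). At the other 6 genes they ran from 0.02 at Myom1 to 2.13 at Myom2 (exact permutation p = 1 for each). Without Paro/Neo replicate 2 the difference was -0.11 at Myh7 and -0.78 at Ttn. It was also negative at Myl2, Myl3, Mybpc3 and Myom1, and Myom2 held peaks in that library alone. The directions at all these genes thus rest on 1 library. Without Paro/Neo replicate 1 the difference was 4.26 at Myom2, and without control replicate 2 it was 0.12 at Myh6. Over all members the log2 difference was 0.29, and -0.55 without Paro/Neo replicate 2.

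As a share of the total length of a list, the members held 21.5% and 3.0% of the Hoxb13 length in Paro/Neo replicates 1 and 2, against 7.28% and 17.3% in control replicates 1 and 2. These shares are set beside the 0.0546% of all gene windows that the members make up. Most of the Hoxb13 length at the members lay at Ttn, whose window is 288.578 of their 645.855 kb. Ttn held 71.9 of 119 kb and 268 of 381 kb in Paro/Neo replicates 1 and 2. In control replicates 1 and 2 it held 168 of 231 kb and 90.1 of 130 kb. The members' share was high in the 2 short lists (821 and 1121 peaks) and low in the 2 long ones (16963 and 5202 peaks), in both groups. For Meis1 the share did not pass 0.329% in any list. The change at a gene with Paro/Neo was more negative for Meis1 than for Hoxb13 by -2.77 at Myh6 and -3.27 at Myh7 on the log2 scale (exact permutation p = 0.111 for each, over 36 orders with a smallest p of 0.0556). At Ttn that difference was -3.17 (exact permutation p = 0.167) and at Myl2 -0.99 (exact permutation p = 0.278). With the second Meis1 replicates exchanged these differences were -1.23 at Myh6, -0.88 at Myh7, 0.33 at Ttn and -0.0021 at Myl2 (exact permutation p = 0.556, 0.556, 0.944 and 1). At Myom2, where each antibody had peaks in a single library, the difference was -2.87 with or without the exchange (exact permutation p = 0.5 for each). At Myl3, Mybpc3 and Myom1 it was -0.93, -0.42 and -0.024. These genes held no Meis1 peak, so those values come from Hoxb13 alone.

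The widest peak of every Hoxb13 list lay at a thick filament gene or titin. It measured 18084 bp at Myh6 and 96161 bp at Ttn in Paro/Neo replicates 1 and 2, against 25845 and 17827 bp, both at Ttn, in control replicates 1 and 2. Of the 10 widest peaks, 5 and 6 lay at the members in Paro/Neo, against 5 and 7 in control lists. Peaks of at least 5 kb, a width chosen after the data had been seen, numbered 15 and 121 in Paro/Neo lists, of which 8 and 11 lay at the members, against 34 and 13 in control lists, of which 10 and 8 did. A peak of at least 5 kb in at least 2 libraries was found at 4 members (Myh6, Myh7, Myl2 and Ttn) and at 24 genes in all, 0.11% of protein-coding genes.

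Where the strand was given, the highest-fold Hoxb13 peak lay nearer the 3′ than the 5′ end of the gene at 5 of 6 and 4 of 7 members with a peak in Paro/Neo replicates 1 and 2, against 6 of 7 and 6 of 7 in control replicates 1 and 2. Over all such genes the share was 36.2% and 33.3% in Paro/Neo lists, against 26.9% and 33.1% in control lists. This measure was chosen after the data had been seen. Myh7, whose highest-fold peak lay over its 5′ end, was the exception in the lists other than Paro/Neo replicate 2.

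The merged Meis1 peaks at the members formed 11 regions and the merged Hoxb13 peaks 48. Of the Meis1 regions, 10 overlapped a Hoxb13 region, or 90.9% of them, while 8 of the Hoxb13 regions, or 16.7%, overlapped a Meis1 region. Over all regions of the series 29.6% of the Meis1 regions overlapped a Hoxb13 region and 8.44% of the Hoxb13 regions a Meis1 region. Hoxb13 peaks covered 18.4% to 59.0% of the member windows, depending on the list. Bases under a peak in at least 1 Hoxb13 list made up 100% of the Myh6 window and 97.6% of the Myh7 window. This share was 93.4% at Ttn and 56.5% at Myl2. The 10 overlapping Meis1 regions lay at these genes, so their overlap cannot tell shared sites from wide Hoxb13 coverage. The Meis1 region without overlap was that of Myom2. Both Meis1 regions called at Myl2 in more than 1 library overlapped a Hoxb13 peak of Paro/Neo replicate 2 only, the list that covers the most bases. The Meis1 region over the Ttn promoter overlapped Hoxb13 peaks of Paro/Neo replicate 2 and control replicate 1. Of these peaks, only that of Paro/Neo replicate 2 reached the 250 promoter bases.

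Another 33 genes of the thick filament, the M-band and titin's partners were all matched by symbol. Of these, 4 held a Meis1 region called in at least 2 libraries, beside 6.19% of all genes. A Hoxb13 region called in at least 2 libraries lay at 12, beside 22.9% of all genes. A Meis1 region in all 4 libraries lay at 3 of the 33, beside 1.75% of all genes. They were Mylpf, a fast skeletal regulatory light chain, Mylk3, the cardiac kinase that phosphorylates Myl2, and Trim55, a muscle ring-finger protein. The highest Meis1 peak at Trim55 stood at percentiles 97.2 and 79.4 in Paro/Neo, against 92.0 and 76.3 in control lists. At Mylk3 it stood at 22.2 and 59.7 in Paro/Neo, against 87.0 and 81.7 in control lists. At Mylpf it stood at 26.5 and 35.9 in Paro/Neo, against 39.6 and 7.87 in control lists. A Hoxb13 region in all 4 libraries, held by 2.84% of all genes, lay, among others, at Mylpf and at Fhl2, a titin-binding LIM protein. Trim63, a muscle ubiquitin ligase that binds titin, also held one. The mean percentile of the highest Hoxb13 peak over the 4 lists was 91.6 at Mylpf, 98.4 at Fhl2 and 60.02 at Trim63. The skeletal heavy chain genes Myh1, Myh2 and Myh4, the embryonic Myh3 and the perinatal Myh8, named after their values were seen, held no region of either antibody. Nor did Myh13 and Myh15. Myh7b, the remaining heavy chain gene of the list, held a Hoxb13 region called in 3 libraries and a Meis1 region called in 1.

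Genes with the most similar pattern were found by the root mean square distance of the percentile of the highest peak over the 8 libraries, for the 4 members with a peak in at least 5 of them. Nearest to Myh6 were Cdyl, Kcnn2 and Tpcn1, at 3.02, 6.10 and 8.35 percentile points. The same 3 genes were nearest to Myh7, at 3.504, 5.57 and 8.66 points, and both heavy chains share their Meis1 region. Myl2 was nearest to Cep85l, Dusp1 and Mb, at 5.10, 11.04 and 13.5 points. Of these, Mb encodes myoglobin, the oxygen store of muscle. Nearest to Ttn were Rap1gap2 and Cenpu, at 5.98 and 8.65 points.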

How the data were processed

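The submitters' processing notes name Bowtie2, MACS2, HOMER, Picard 1.127 and FastQC 0.11.5 with build mm10; the sources used here give no options, control inputs or filters. The 8 deposited broadPeak lists hold 1 library each, so replicates were not pooled. Column 7 of the deposited lists is a fold enrichment, a ratio to local background that was used only for ranks within a list. The authors' −log10 q was used for a stricter threshold (−log10 q of at least 2), from a smallest value of 1.00, and their −log10 p and the deposited score were not used. The 8 input libraries are not analysed here.

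Gene ends came from a RefSeq table of GRCm38.p6, whose coordinates are those of mm10, and starts, strands and promoters from a RefSeq table of the same build; exon and intron were not assigned. Members and lists were chosen with earlier results of these data known. All members were described; from the 33 other genes, those with a region in all 4 libraries of an antibody were named, and for a member with peaks in at least 5 of 8 libraries the 3 genes of nearest pattern that share no peak with it; some genes that this rule names are not reported here. Regions are peaks of 4 libraries sharing at least 1 bp. Covered length per gene was compared as log2(bp + 100) by exact two-sided permutation over 6 orders of the libraries, and between antibodies over 36 orders, in Python 3.11.15 with numpy 2.4.6, pandas 2.3.3 and matplotlib 3.10.9, tested on simulated data. Counts over the members carry no p-value. Replicate numbers were shared between groups but nothing says that they mark a pair. With depth unknown, no detection limit could be given for an absent peak.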

Additional observations from a re-analysis of the deposited data

How the results depend on the processing

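For Meis1, the difference in members with a peak (-3) was -2 with the gene body alone and 0 both with lists reduced to equal length and with the second replicates exchanged; leaving out 1 library gave -3.5 to -2.5. The difference in peaks (-5) was -0.5 with equal lengths and -1 with the exchange, and -7 to -3 without 1 library. The log2 difference in covered length (-2.11) was -0.50 with equal lengths and 0.33 with the exchange, and -2.72 to -1.51 without 1 library. Members with a region in at least 2 libraries (4) fell to 1 with equal lengths, in all 4 libraries, and without either control, with a range of 1 to 4 without 1 library; the share of all genes (6.19%) was 2.85% with equal lengths and 3.77% to 5.98% without 1 library. For Hoxb13, the difference in members with a peak (0) was 2 with the gene body alone and -1 to 1 without 1 library; the log2 difference in covered length (0.29) ran from -0.55 without Paro/Neo replicate 2 to 1.135 without Paro/Neo replicate 1, with -0.12 without control replicate 2; the difference in peaks (-18) was -2 at a −log10 q of at least 2, -5 with equal lengths and -30.5 to -5.5 without 1 library; the share of all genes (22.9%) was 4.19% with equal lengths and 6.56% to 22.8% without 1 library. Equal lengths leave fewer peaks by construction; the cause of the other shifts was not tested.

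Directions at single genes turned as follows. With the exchange, Meis1 was 0.36 at Myl2 and 0.51 at Ttn. The exchange was extended to the antibody differences and the counts of non-overlapping genes after the data had been seen. With equal lengths, Hoxb13 was -0.31 at Mybpc3, -0.035 at Ttn and -1.37 at Myom1. Over fits that left out 1 library, the Hoxb13 difference reached 1.08 at Myh7, 1.128 at Myl2, 2.45 at Myl3, 1.83 at Mybpc3, 1.12 at Ttn, 3.61 at Myom1 and 4.26 at Myom2 (2.13 with all libraries) without Paro/Neo replicate 1; at Myh6 it ran from 0.12 to 0.70. Without Paro/Neo replicate 2 it was -0.11 at Myh7, -0.40 at Myl2, -0.59 at Myl3, -0.997 at Mybpc3, -0.78 at Ttn and -3.57 at Myom1; without control replicate 2 it was -0.28 at Ttn and -0.81 at Myom1. A pseudocount of 1 bp gave -3.15 at Myom1. A replicate block left the log2 differences in covered length at -2.11 for Meis1 and 0.29 for Hoxb13, with a smallest possible sign-flip p of 0.5. Of all other values, 85 over the members and 240 at single genes were counted as unchanged. Differences and percentiles had moved by less than the spread or kept their direction, and region counts and shares stayed within a fixed ratio. A percentile without a spread was always counted as unchanged. Another 8 values, all percentiles of the highest Hoxb13 peak at single genes, moved beyond the spread. With equal lengths that percentile fell from 98.3 to 92.7 at Ttn and from 95.5 to 90.4 at Mybpc3, among others. With the gene body alone it was 95.1 at Ttn and 99.8 at Mybpc3. Depth limits every absence of a peak. Ranking by −log10 q bears only on the percentile of the highest peak, and merging across gaps only on regions.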
